A study of Mus musculus with 4 samples.

Results

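The 9 genes described here, Postn, Prrx1, Prrx2, Osr1, Osr2, Tcf7l2, Pdgfra, Twist1 and Twist2, are used as markers of the fibroblasts that build muscle connective tissue. They were taken by symbol from the annotation of an Affymetrix mouse array, which names 18193 genes, and 20 probe sets carry their names. Total RNA came from E13.5 mouse embryos of BALB/c background, and 1 array was hybridised for each of 4 groups: MyoD-/- (Myod null) limb muscle, WT limb muscle, Myf5-/- (Myf5 null) back muscle and WT back muscle. MyoD (gene Myod1) and Myf5 are transcription factors that commit cells to skeletal muscle, and the null alleles are not limited to a tissue by any label. The series title places the samples in work on motor neurons and their muscle. The number of embryos behind each RNA is not stated in the labels. With 1 array per group there is no replicate error, no test was run and no p-value is given. The number of arrays limits the precision.

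Muscle connective tissue is the loose tissue around and between muscle fibres. In the limb its fibroblasts come from the lateral plate, apart from the somite cells that form the fibres, and they help to place and shape the muscles. Tcf7l2 and Osr1 label these fibroblasts in mouse and chick embryos, and Pdgfra labels their adult relatives, the fibro-adipogenic progenitors. None of the 9 genes belongs to these cells alone, since limb mesenchyme, dermis, tendon and the sheath of cartilage use several of them. In dissected pieces such as these, fewer cells of a type and less RNA per cell cannot be told apart.

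Signals are given on a linear scale after each array was brought to a trimmed mean of 500. A signal below 100 was treated as having no level and is written as under 100. A gene was counted as higher or lower when the ratio was 2 or more and the brighter array reached 200. Levels are compared between arrays for a given probe set, never between genes. Where a gene has several probe sets, their log2 ratios scatter, and the median SD of this scatter was 0.35 for MyoD-/- over WT limb, 0.32 for the back pair and 0.35 for WT limb over WT back. These SDs describe probes and not embryos, and they are the only yardstick of spread in these data. They are medians over genes, and the 90th percentiles of the SD were 0.76, 0.74 and 0.77 in the same order.

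The targeted genes were read first. The brighter probe set of Myod1 was 688 in MyoD-/- limb, against 1438 in WT limb. This probe set thus still gave a signal in MyoD-/- limb, while the dimmer one was under 100 there, against 209 in WT limb. Myf5 was 583 in the Myf5-/- back array, against 508 in WT back, so its signal does not bear out the label. That array is called the array labelled Myf5-/- below. In limb Myf5 was 1019 in MyoD-/-, against 506 in WT (log2 1.01). Where the probes lie relative to the deleted parts is unstated in the labels, and probes outside a deletion check nothing. Muscle markers were present in all 4 arrays: the 16 genes of the muscle list summed to 61955.5 in MyoD-/- limb, 94773 in WT limb, 117194 in the array labelled Myf5-/- back and 181654 in WT back. The limb label was borne by Hoxd13, a gene of the hand and foot plate, at 15406 and 12104 in MyoD-/- and WT limb and 167 and 157 in the back arrays. Cartilage and skin were in the pieces as well, since the cartilage collagen Col2a1 read 3343 (WT limb) and 5495 (WT back) and the epidermal keratin Krt5 read 5685 and 2454. The signal ratio between the 3 prime and 5 prime ends of Gapdh, a sign of RNA and labelling quality, was 8.06 in MyoD-/- limb, 12.2 in WT limb, 9.46 in the array labelled Myf5-/- back and 6.45 in WT back. For Actb it was 3.86, 6.88, 4.28 and 3.20 in the same order. This sign of quality thus differed between the arrays of each pair, and its part in the ratios below was not tested.

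The start regions of a few members are shown because they belong to the gene that differed most between limb and back, Postn, and to the paired genes that moved together in both mutant comparisons, Twist1 and Twist2. Each is the 250 bases before the annotated start, 5′ to 3′ on the gene's own strand, from RefSeq on GRCm38.p6. Capitals mark matches to CCAAT and TATAAA on either strand and to CANNTG, the E-box that basic helix-loop-helix (bHLH) factors such as the TWIST proteins bind. The CCAAT search was chosen after the letters had been read.
Postn, chr3:54359017-54359266, plus strand: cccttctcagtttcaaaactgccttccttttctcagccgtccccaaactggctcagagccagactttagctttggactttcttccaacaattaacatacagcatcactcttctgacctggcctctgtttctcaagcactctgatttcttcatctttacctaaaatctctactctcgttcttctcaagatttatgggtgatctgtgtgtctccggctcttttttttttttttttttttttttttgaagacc
Twist1, chr12:33957421-33957670, plus strand: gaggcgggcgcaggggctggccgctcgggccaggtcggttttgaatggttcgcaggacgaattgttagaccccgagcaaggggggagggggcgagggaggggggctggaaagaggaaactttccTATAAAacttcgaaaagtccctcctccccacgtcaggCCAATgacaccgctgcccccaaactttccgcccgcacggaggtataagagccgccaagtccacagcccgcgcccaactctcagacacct
Twist2, chr1:91801211-91801460, plus strand: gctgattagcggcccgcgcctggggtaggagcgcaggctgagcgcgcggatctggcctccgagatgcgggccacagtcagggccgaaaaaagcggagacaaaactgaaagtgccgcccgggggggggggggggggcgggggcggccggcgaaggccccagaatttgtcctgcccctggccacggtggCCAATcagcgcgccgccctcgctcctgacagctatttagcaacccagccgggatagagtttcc

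Twist1 and Twist2 each held 1 CCAAT, starting 89 and 63 bases before the start, and 33.8% of the 32851 mouse windows of this length hold it on either strand. The Postn window shown held none of the searched letters and was 40.4% G and C, against 62.4% for Twist1 and 68.8% for Twist2. RefSeq gives Postn another start, whose window (chr3:54360857-54361106) held TATAAA 26 bases before that start and was 52.0% G and C. Of the 9 windows that RefSeq gives for 7 of the members, 1 held CANNTG, that of Pdgfra, while 66.2% of all windows do. TATAAA stood in 12.4% of all windows and in 3 of the 9, which were that of Twist1, 126 bases before the start, the other one of Postn and 1 of Tcf7l2. These are matches of letters in a short window and say nothing about binding.

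The largest ratios among the members were between limb and back. Postn was 3.61-fold lower in WT limb than in WT back and 3.68-fold lower between the mutant arrays, Prrx2 was 3.18-fold and 2.80-fold higher in limb, and Prrx1 and Pdgfra were higher in limb by less. Between each mutant and its WT, no member reached a ratio of 2 in the probe set that represents it, the one of highest mean signal. Over all genes reaching 200, 9.58% did so in the limb pair and 10.1% in the back pair. At WT limb over WT back 11.2% of genes did, and 2 of the 9 members. No test sets these member counts apart from those shares. The plot of signals gives every probe set.

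**Figure D1:**
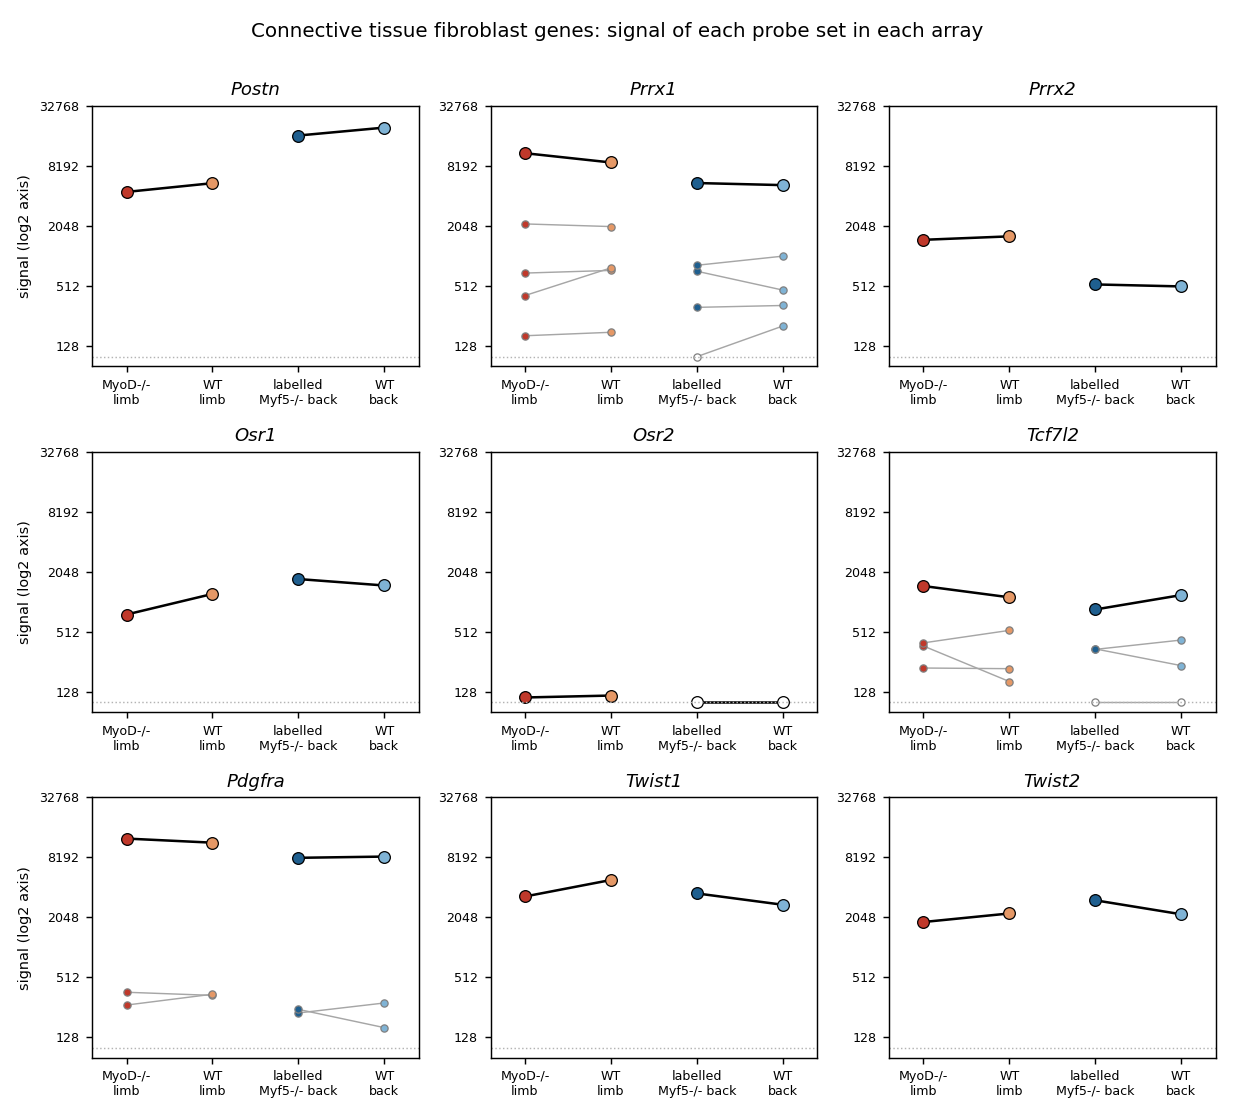
Signal (log2 axis) of every member probe set that reached 100, in the arrays MyoD-/- limb, WT limb, labelled Myf5-/- back and WT back, with large points for the probe set that represents the gene, small points for its other probe sets and white points for signals under 100, drawn at the floor (dotted line). Postn sits between 4501 and 5509 in limb and between 16562 and 19889 in back, and Prrx2 the other way round.

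Postn encodes periostin, a secreted matrix protein that binds integrins and aids the cross-linking of collagen. It is read by 1 probe set (1423606_at), with a signal of 4501 in MyoD-/- limb, 5509 in WT limb, 16562 in the array labelled Myf5-/- back and 19889 in WT back. Both limb arrays lay far below both back arrays, and within each region the mutant array was the lower. WT limb over WT back gave a log2 ratio of -1.85 (3.61-fold), rank 44 from the bottom of the 11444 genes reaching 200. The other pair of arrays, MyoD-/- limb over the array labelled Myf5-/- back, shares no sample with the first and gave -1.88 (3.68-fold). The mutant differences were small, at -0.29 in limb and -0.26 in back, each within the spread between probe sets.

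Prrx1 and Prrx2 encode related homeodomain factors of limb and craniofacial mesenchyme. Prrx2 (1432331_a_at) had 1489 in MyoD-/- limb and 1612 in WT limb, against 531 in the array labelled Myf5-/- back and 507 in WT back. The regions did not overlap, and the genotypes of a region differed by log2 -0.11 in limb and 0.07 in back. Its ratio for WT limb over WT back was 1.67 (3.18-fold), rank 101 from the top, and 1.49 (2.80-fold) for MyoD-/- limb over the array labelled Myf5-/- back.

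Prrx1 has 6 probe sets, of which 5 reached 100. The brightest (1425528_at) had 11013 in MyoD-/- limb and 8890 in WT limb, against 5527 in the array labelled Myf5-/- back and 5267 in WT back. It was higher in both limb arrays, with log2 ratios of 0.76 for the WT pair and 0.99 for the mutant pair. For WT limb over WT back, 4 of the 5 probe sets were above 0, the highest at 1.25 (778 against 326) and the lowest, a dim probe set, at -0.21 (176 against 203). Its mutant ratios split by probe set. In limb they ran from -0.92 (411 in MyoD-/- against 778 in WT) to 0.31, with 2 above and 3 below 0. In back they ran from 0.63 (720 in the array labelled Myf5-/- against 466 in WT) down to at least 2.03-fold lower (under 100 against 203).

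Osr1 and Osr2 are odd-skipped zinc-finger factors, and Osr1 marks embryonic connective tissue progenitors. Osr1 (1449350_at) had 762 in MyoD-/- limb, 1226 in WT limb, 1729 in the array labelled Myf5-/- back and 1490 in WT back. Its lowest array was MyoD-/- limb, with a log2 ratio of -0.69 against WT limb (1.61-fold), the largest mutant difference among the representing probe sets and beyond the spread between probe sets. In back the ratio was 0.21, within that spread. Limb lay below back in both pairs, at -0.28 for the WT arrays and -1.18 (2.27-fold) for the mutant arrays, so the size depended on which arrays were set against each other. Osr2 was near the floor, at 112 in MyoD-/- limb and 117 in WT limb and under 100 in both back arrays, and its second probe set was under 100 throughout. At WT limb over WT back this gives at least 1.17-fold, too close to the floor to rank.

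Tcf7l2 encodes a TCF/LEF factor that carries Wnt signals to DNA with beta-catenin, and is called TCF4 in much work on muscle fibroblasts. A different gene has the symbol Tcf4. The brightest of its 4 probe sets (1429428_at) had 1472 in MyoD-/- limb, 1134 in WT limb, 856 in the array labelled Myf5-/- back and 1193 in WT back. The mutant array was the higher in limb (log2 0.38) and the lower in back (-0.48), and the WT arrays differed by only -0.07. The other probe sets did not all follow. In limb 1429427_s_at went the other way, at 396 in MyoD-/- against 528 in WT (-0.42, beyond the spread between probe sets). In back it gave -0.31. A probe set for alternative transcripts (1426639_a_at) was 368 in MyoD-/- limb against 162 in WT limb (2.27-fold), and 344 in the array labelled Myf5-/- back against 234 in WT back (0.56). Another (1425229_a_at) was near equal in MyoD-/- and WT limb, at 221 and 218, and under 100 in both back arrays, at least 2.18-fold higher in WT limb than in WT back.

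Pdgfra, the receptor for platelet-derived growth factor on mesenchymal cells, was close to even across genotypes. The brightest of 3 probe sets (1421917_at) had 12664 in MyoD-/- limb and 11518 in WT limb, against 8118 in the array labelled Myf5-/- back and 8353 in WT back. Both limb arrays were above both back arrays, with log2 ratios of 0.46 for the WT pair and 0.64 for the mutant pair, and all 3 probe sets were above 0 in both of these pairs. The mutant ratios of that probe set were 0.14 in limb and -0.04 in back. A dim probe set (1438946_at) gave -0.36 in limb (270 in MyoD-/- against 347 in WT) and 0.61 in back (245 in the array labelled Myf5-/- against 161 in WT).

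Twist1 and Twist2 encode bHLH factors that hold mesenchymal cells undifferentiated, and TWIST1 can block the activity of MyoD. Twist1 (1418733_at) had 3322 in MyoD-/- limb against 4863 in WT limb (log2 -0.55, 1.46-fold), and 3567 in the array labelled Myf5-/- back against 2745 in WT back (0.38, 1.30-fold). Twist2 (1448925_at) had 1842 in MyoD-/- limb against 2244 in WT limb (-0.29), and 3043 in the array labelled Myf5-/- back against 2204 in WT back (0.47, 1.38-fold). Both were thus lower in the limb mutant and higher in the array labelled as the back mutant, although the Twist2 value in limb lay within the spread between probe sets. Among all counted genes these were the more common directions too, as given below. WT limb over WT back separated Twist1, at 0.83 (1.77-fold), from Twist2, at 0.03. The mutant arrays gave a different order, with -0.10 for Twist1 and -0.72 for Twist2 at MyoD-/- limb over the array labelled Myf5-/- back.

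For MyoD-/- over WT limb, 0 of the 9 members reached a ratio of 2, in a comparison where 9.58% of the 11344 genes reaching 200 did so (2.94% higher, 6.64% lower). Members above 0 numbered 3 and those below 0 numbered 6, with a median log2 ratio of -0.11 beside -0.04 over all genes, and -0.29 without probe sets that share probes, over 7 members. Osr1, Twist1 and Tcf7l2 were the 3 members beyond the spread between probe sets, and the share of all genes beyond it was not counted. Their ranks show that many other genes were. Osr1 was 1312 and Twist1 1764 from the bottom of the 11344 genes, and Tcf7l2 was 2030 from the top. The share of all calls that were higher was 30.7%, but 45.5% under quantile normalization and 55.5% after loess. The muscle list had 14 of 16 genes below 0 in this pair, with a median of -0.54, the tendon list 5 of 6 (-0.42), and the cartilage list 11 of 12 above 0 (0.22). The limb position list had 6 of 9 measured genes below 0 (median -0.25, 2 counted), and its 10 genes summed to 21239 in MyoD-/- limb against 19331 in WT limb, most of it Hoxd13. Among them Pitx1, a hindlimb factor, had 243 in MyoD-/- limb against 757 in WT limb (-1.64, and under 100 against 401 in its other probe set), Hoxa13, a gene of the hand and foot plate, had 123 against 318 (-1.37) and the hindlimb gene Tbx4 gave -0.75. Pitx1 read 1276 in the array labelled Myf5-/- back and 1025 in WT back, above both limb arrays. The forelimb gene Tbx5 gave 0.25 in the limb pair, with -0.92 in its other probe set. The part of these marker differences in the members' values, those of Osr1 and Twist1 included, was not tested.

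For the array labelled Myf5-/- over WT back, again 0 members reached a ratio of 2, while 10.1% of 11633 genes did (6.95% higher, 3.13% lower). With Osr2 under 100 in both arrays, 8 members were measured, 5 above 0 and 3 below, with a median of 0.07 beside 0.05 over all genes. Tcf7l2, Twist2 and Twist1 were beyond the spread between probe sets, as were many other genes. Tcf7l2 ranked 1361 from the bottom of the 11633 genes, and Twist2 and Twist1 ranked 2153 and 2573 from the top. Of all calls 68.9% were higher, against 50.3% under quantile normalization and 39.3% after loess. Muscle and cartilage markers were lower here in 16 of 16 and 12 of 12 genes, with medians of -0.69 and -1.85. The 12 cartilage genes summed to 6455 in the array labelled Myf5-/- back, against 24315 in WT back. In the same arrays the members' representing probe sets ran from log2 -0.48 (Tcf7l2) to 0.47 (Twist2), with Pdgfra at -0.04 and Prrx1 at 0.07. The part of the lower muscle and cartilage signal in the members' values was not tested.

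**Figure D2:**
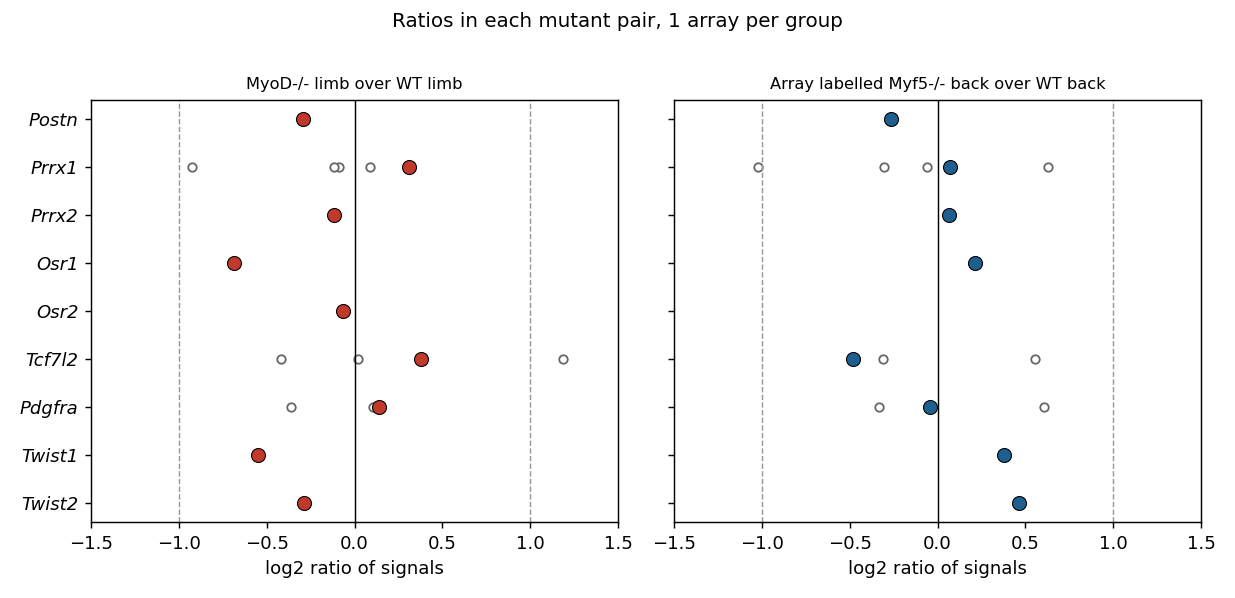
Log2 ratio of signals for MyoD-/- limb over WT limb (left, red) and the array labelled Myf5-/- back over WT back (right, blue), with filled points for the probe set that represents each gene and open points for its other probe sets at 100 or more; dashed lines mark a ratio of 2. All filled points lie between -0.69 and 0.47, and probe sets of Prrx1, Tcf7l2 and Pdgfra fall on both sides of 0.

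For WT limb over WT back, 1 member was counted higher (Prrx2) and 1 lower (Postn), beside 11.2% of 11444 genes counted in either direction, 6.76% higher and 4.47% lower. The median of the 9 members was 0.23, beside 0.04 over all genes, but 0.46 with a floor of 50 and 0.03 with a floor of 200, since Osr2 is the middle member and its back signals are at the floor. Without probe sets that share probes it was 0.03, over 7 members. Of all calls 60.2% were higher, against 45.4% after loess. Osr2 also read higher in both limb arrays than in both back arrays, but it stayed under 200 and is left out of the counts that follow. Among the other 8 members, both limb arrays lay above both back arrays for Prrx1, Prrx2 and Pdgfra, where 19.9% of 12426 genes reaching 200 did so. Both limb arrays lay below for Postn and Osr1, where 21.0% of these genes did so. No test sets the counts of 3 and 2 apart from those shares. With a gap of at least 2-fold between the closest arrays of the regions stood Prrx2 above, as did 0.587% of genes, and Postn below, as did 0.628%. For MyoD-/- limb over the array labelled Myf5-/- back, 1 member was higher (Prrx2) and 2 were lower (Postn and Osr1), beside 14.2% of 11635 genes (4.53% higher, 9.7% lower).

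**Figure D3:**
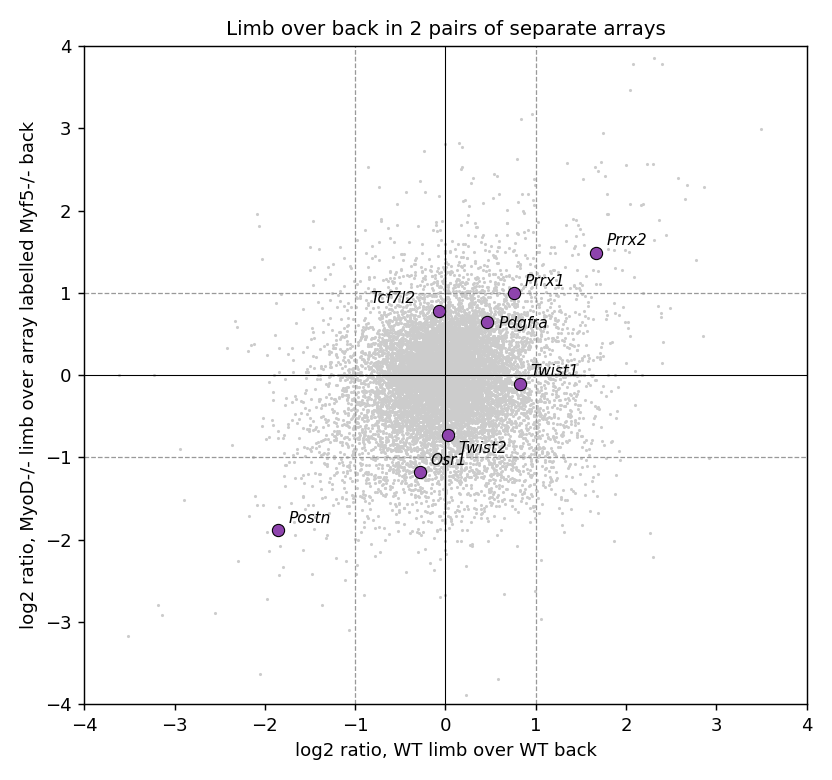
Log2 ratio of WT limb over WT back (horizontal) against MyoD-/- limb over the array labelled Myf5-/- back (vertical), for genes reaching 200 (grey) and the members (purple, Osr2 not drawn because it stayed under 200); 3 of 12426 genes lie outside the axes. Postn (-1.85 and -1.88) and Prrx2 (1.67 and 1.49) keep their place in both pairs of arrays, while Twist1 (0.83 and -0.10) does not.

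Genes with the pattern most like that of a member were sought over the 4 arrays, by the distance between log2 signals centred on each gene's mean, among 10911 genes at 100 or more in every array. The points share arrays and scaling, and 4 arrays cannot tell many patterns apart. Nearest to Postn were Dlk1, an imprinted factor of preadipocytes (2914, 3455, 10079 and 11034 in MyoD-/- limb, WT limb, the array labelled Myf5-/- back and WT back, distance 0.17), the neurofilament gene Nefm (0.26) and the collagen-binding proteoglycan gene Dcn (0.26). Within a distance of 0.3 of Postn were 4 genes. Nearest to Prrx2 were Kera, a proteoglycan gene of cornea and tendon (1718, 1814, 592 and 523 in the same order, distance 0.12), the transcription factor gene Creb5 (0.19) and Aldh1a2, which makes retinoic acid (0.26). Nearest to Prrx1 were Tbx15, Zbtb14 and Crabp2, at 0.08, 0.09 and 0.11, and 78 genes were within 0.3. For Osr1 they were Zfpm1, Sf3b5 and Txlnb, at 0.04, 0.08 and 0.08, and 121 genes were within 0.3.

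Related genes were read from lists. Of 26 measured fibroblast matrix genes, 1 was counted higher and 1 lower in MyoD-/- limb, 0 either way in the array labelled Myf5-/- back, and 0 higher and 4 lower at WT limb over WT back. In MyoD-/- limb 17 of the 26 were below 0, with a median of -0.29, in the array labelled Myf5-/- back 13 were below and 13 above, and at WT limb over WT back 19 were below. In limb Lum, a proteoglycan, had 7791 in MyoD-/- against 3668 in WT (log2 1.09) and the collagen gene Col12a1 had 618 against 1648 (-1.42, with 0.56 in another probe set). The 4 that were lower in WT limb than in WT back were Dcn (2995 against 8945, -1.58), Col14a1 (1520 against 3517, -1.21), the elastic fibre gene Fbln5 (1002 against 2209, -1.14) and the cross-linking enzyme gene Loxl1 (990 against 2016, -1.03). A dimmer probe set of Dcn went the other way, at 0.82. The list median for WT limb over WT back was -0.26, on the same side of 0 as Postn. The main fibril collagen gene Col1a2 gave -0.05 there, with -0.47 and -0.33 in its other probe sets, and -0.80 between the mutant arrays. In the back pair the list ran from -0.62 (Col6a3) to 0.48 (Eln).

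Of other genes used to mark connective tissue or mesenchymal progenitors, 23 were measured in the limb pair, 24 in the back pair and 23 at WT limb over WT back. At WT limb over WT back 8 were counted higher and 3 lower. The 4 with the highest ratios were the limb T-box genes Tbx4 (815 against 156, 2.38) and Tbx5 (1152 against 273, 2.08), the homeobox gene Shox2 (3759 against 761, 2.30) and Ebf1 (2080 against 423, 2.30). In other probe sets Tbx4 gave 0.64, Tbx5 0.67, Shox2 2.52 and Ebf1 0.80 to 1.72. The 3 lower genes, named after their values were seen, were Dlk1 (-1.68), the protease gene Fap (894 against 1836, -1.04) and Meox1 (1052 against 2122, -1.01). Postn was itself counted lower here and Prrx2 higher, so sharing a side with the 3 or the 8 genes follows from the counting alone. Dlk1, like Dcn, had already been picked for a pattern near that of Postn, so its direction was fixed in advance. Not every limb gene was on the side of Prrx2, since Pitx1 gave -0.44. In MyoD-/- limb Foxf1 was at least 2.27-fold higher and S100a4 at least 3.03-fold lower, from 227 against under 100 and under 100 against 303. The other probe set of Foxf1 gave -0.19. In the array labelled Myf5-/- back 3 were counted lower: Tbx5 (under 100 against 273, at least 2.73-fold), Shox2 (299 against 761, -1.35, with 1.22 in another probe set) and Foxp2 (407 against 815, with -0.79 to 0.25 in its other probe sets). The other probe set of Tbx5 gave -0.09 in that pair.

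Partners of periostin and the TGF-beta genes that act upstream of it had medians of 0.02 in MyoD-/- limb, -0.09 in the array labelled Myf5-/- back and -0.27 at WT limb over WT back, over 14 genes. The integrin gene Itgb1 was counted in each: 1599 in MyoD-/- limb against 527 in WT limb (1.60), 643 in the array labelled Myf5-/- back against 1446 in WT back (-1.17), and -1.46 for WT limb over WT back. Its probe sets disagreed, with 0.77 and -0.38 in limb. Ccn2, a matrix-associated signalling protein, had 912 in the array labelled Myf5-/- back against 2462 in WT back (-1.43), and WT limb, at 1146, was lower than WT back (-1.10). Tnc, which binds periostin, had 1750 in the array labelled Myf5-/- back against 3891 in WT back (-1.15).

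Of the PDGF ligands and Pdgfrb, 5 genes in all, 0 were counted in the limb pair or at WT limb over WT back and 1 in the back pair: Pdgfb had 145 in the array labelled Myf5-/- back against 388 in WT back (-1.42), with 0.35 in its other probe set. Pdgfc, a ligand of the Pdgfra receptor, had 7807 in MyoD-/- limb against 5349 in WT limb (0.55), and 2625 in the array labelled Myf5-/- back against 4496 in WT back (-0.78). At MyoD-/- limb over the array labelled Myf5-/- back both Pdgfb (1.25) and Pdgfc (1.57) were counted higher, although the other probe set of Pdgfb gave -1.39. In the list of TCF/LEF factors, beta-catenin and Wnt feedback genes 0 were counted in the limb pair, the back pair or WT limb over WT back. For WT limb over WT back 8 of its 9 measured genes were above 0 (median 0.55), led by the corepressor gene Tle3 (2768 against 1404, 0.98), and the lowest was Tle4 (-0.16). In the limb pair its extremes were Sp5 (0.92, from 190 against under 100) and Tcf7l1 (-0.63), and in the back pair Nkd1 (0.80) and Tle4 (-0.39).

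Of the bHLH partners and relatives of Twist, Tcf21, a factor of fibroblast progenitors, was counted in both mutant pairs, lower in limb and higher in back, the directions that Twist1 and Twist2 had by smaller ratios. It had 105 in MyoD-/- limb against 254 in WT limb (-1.27), and 682 in the array labelled Myf5-/- back against 266 in WT back (1.36, with 0.94 in another probe set). These were also the more common directions over all genes reaching 200. In the limb pair 6.64% were lower and 2.94% higher, and in the back pair 6.95% were higher and 3.13% lower. That lean was not kept after loess. Tcf15, a somite factor, had 604 in the array labelled Myf5-/- back against 270 in WT back (1.16). Hand2, a limb patterning factor that pairs with Twist1, had 4508 in WT limb against 909 in WT back (2.31), with 0.20 in another probe set. The partners Tcf3, Tcf4 and Tcf12 had log2 ratios of 0.03, 0.49 and 0.52 in limb and 0.12, 0.05 and -0.35 in back.

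**Figure D4:**
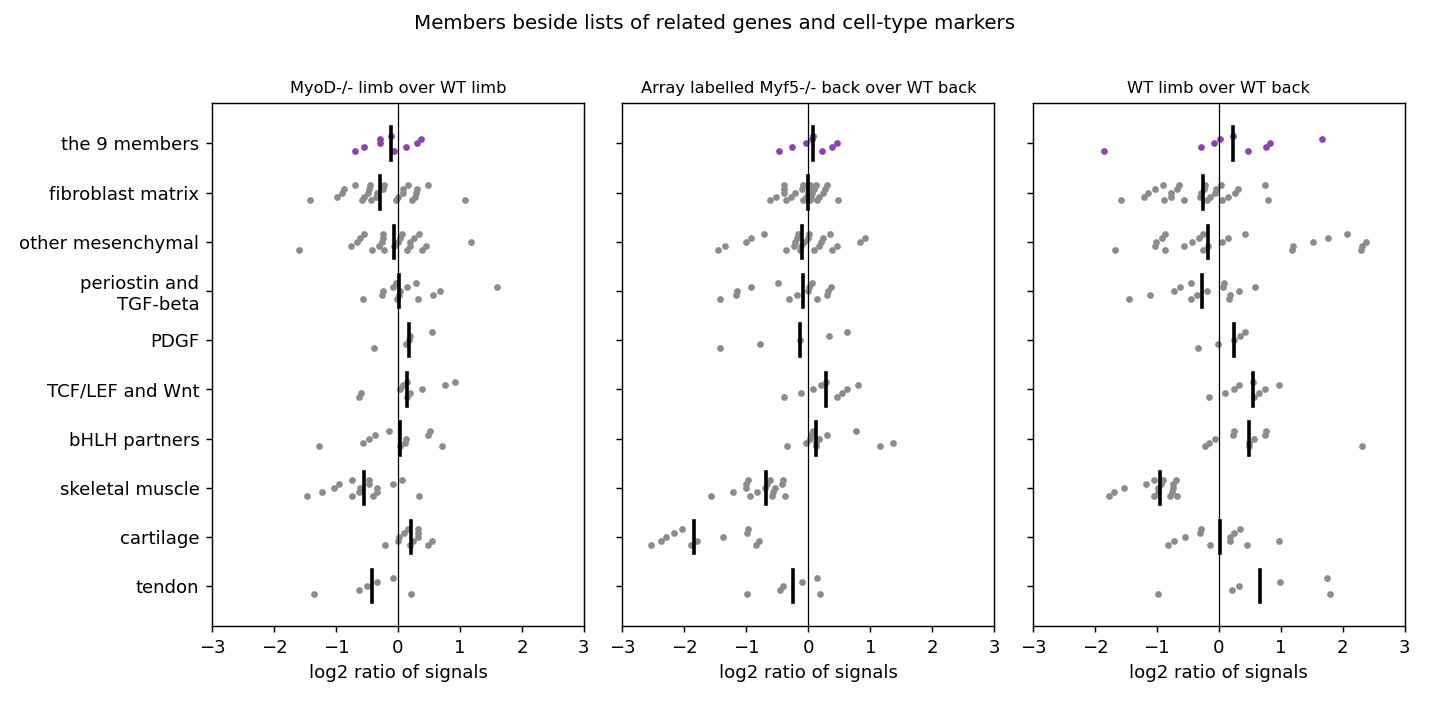
Log2 ratio of each measured gene (points) and the list median (black bars) for the members, lists of related genes and markers of 3 other tissues, in MyoD-/- limb over WT limb (left), the array labelled Myf5-/- back over WT back (middle) and WT limb over WT back (right). The members centre near 0 in both mutant pairs (-0.11 and 0.07), where the muscle markers centre at -0.54 and -0.69.

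Markers of other cell types also differed between limb and back. Among them were the macrophage list, with 6 of 6 measured genes lower in WT limb than in WT back (median -1.20, 4 counted; summed signal 3437 in MyoD-/- limb, 4066 in WT limb, 6685 in the array labelled Myf5-/- back and 7191 in WT back), and the neuron list, with 6 of 6 lower (-0.90, 2 counted). The muscle list was lower in 16 of 16 genes (-0.96), the Schwann cell list in 3 of 3 measured (-0.52) and the trunk position list in 6 of 7 measured (-0.75). The epidermis list was higher in 7 of 8 genes (0.33), with Krt5 counted (1.21). The smooth muscle and pericyte list was split, with 2 of 4 measured genes above 0 and 2 below (median -0.14). Its gene Tagln had 415 in WT limb against 1476 in WT back, while Rgs5 (0.62) and Cspg4 (0.45, with -0.11 in its other probe set) were higher in limb. The defining genes Myh11 and Cnn1 of that list were under 100 in all 4 arrays. Tendon genes leaned to limb, with 5 of 6 above 0 (median 0.66), Kera and Mkx among them. Kera had already been picked for a pattern near that of Prrx2. Nefm of the neuron list had been picked for a pattern near that of Postn. The directions of Kera and Nefm were thus fixed in advance. Apart from the split smooth muscle list, the lists named here lay on the side of Postn (lower) or Prrx2 (higher) at WT limb over WT back. The Schwann cell and tendon medians were 0.11 and 0.12 at MyoD-/- limb over the array labelled Myf5-/- back. Other lists were near even at WT limb over WT back. Cartilage had 6 of 12 genes above 0 (median 0.02), endothelium 5 of 8 (0.08) and red blood cells 3 of 6 (0.19). The part of all these lists in the values of Postn and Prrx2 was not tested.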

How the data were processed

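The authors deposited intensities on a linear scale, 1 per probe set and array. The submitters' processing notes name MAS5, with no version. Per the labels, each labelling used 6 µg of total RNA. The deposited trimmed means lay between 1477 and 1479, so the arrays had been scaled before deposit. Of 45101 probe sets, 64 are controls. Each array was rescaled to a trimmed mean (2% each side) of 500, floored at 100 and log2-transformed. GEO's platform annotation gives 1 symbol to 34958 probe sets, several to 932 and none to 9211. For each gene the probe set of highest mean log2 signal was taken. Each group has 1 array, and no test was run. The members and lists were chosen with earlier results of these data known. Named genes were every member, up to 4 counted genes per list and comparison (otherwise the extremes), and the 3 nearest patterns for members spanning a log2 range of 1 or more. Pdgfc, Col1a2, the E proteins Tcf3, Tcf4 and Tcf12, and single markers of other tissues were named in addition, after their values were seen. The steps were tested on simulated data. The 8 alternatives, with loess at a span of 0.3, and 1 added after seeing the data, the mutant arrays set limb over back, are given in the closing section. Python 3.11.15, pandas 2.3.3 and statsmodels 0.14.6 were used.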

Additional observations from a re-analysis of the deposited data

Results flagged for a closer look

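Twist1 moved in opposite directions in the mutant pairs by more than the spread between probe sets, with a log2 ratio of -0.55 for MyoD-/- over WT limb and 0.38 for the array labelled Myf5-/- over WT back. Tcf7l2 did so the other way round, with 0.38 in limb and -0.48 in back, in its brightest probe set only. That spread is a median over genes, and many other genes were beyond it in each pair. Each ratio rests on 1 array per group, and the difference between the pairs was not tested.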

How the results depend on the processing

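Of 210 log2 ratios of single members recomputed under the alternatives, 203 moved by less than the spread between probe sets, 7 moved by more and 0 changed the sign of a counted member. As the median over its probe sets Prrx1 was -0.04 in the limb pair and -0.03 in the back pair, so its direction there depends on the probe set, and Tcf7l2 was -0.16 in the back pair. Osr2 at WT limb over WT back was 0.60 with a floor of 50 and 0 with a floor of 200. Postn stayed between -1.97 and -1.83 and Prrx2 reached at most 1.73 and stayed above 0 in that comparison under the listed alternatives that could be computed, but leaving out shared-probe probe sets removes Prrx2 and left 1 counted member in place of 2. With the mutant arrays in place of the WT arrays, Osr1 was -1.18, Tcf7l2 0.78, Twist1 -0.10 and Twist2 -0.72. The members' median ran from -0.29 to -0.11 in the limb pair, from 0.02 to 0.11 in the back pair and from 0.03 to 0.46 at WT limb over WT back. Counts over all genes moved by more than 1.5 times: in the limb pair, from 334 higher and 753 lower to 333 lower after loess, 114 and 179 with a floor of 200, 153 and 342 with a pseudocount of 100, and 179 and 430 over probe set medians. In the back pair 808 higher and 364 lower became 520 higher under quantile normalization, 314 higher after loess, 151 and 123, 431 and 171, and 494 and 203 under the same last 3 settings. At WT limb over WT back 774 higher and 511 lower became 484 higher after loess, 245 and 259, 408 and 273, and 450 and 319, and 1129 were lower with the mutant arrays. No paired analysis was possible because each group has 1 array. Dim probe sets limit Osr2 most.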
